A study of Mus musculus with 8 samples.

Results

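The control cells of this series were heterozygous mouse B cells after 72 h in culture with lipopolysaccharide (LPS) and interleukin 4 (IL-4), and they were described here at the level of their RNA alone. They are the 2 libraries whose genotype is given as heterozygous, of 8 libraries in 4 groups in the whole series. All libraries were made from mature B cells sorted from the spleen of mice aged 8 to 10 weeks, activated with 20 µg/ml LPS and 20 ng/ml IL-4, and sequenced from total RNA. Which allele the controls carried in a single copy, the strain, any Cre transgene and whether each library came from its own mouse are not stated in the labels. The libraries differ in sex-linked genes, given below, so their spread is not that of repeat runs of 1 sample; how much of it is technical was not tested. With 2 libraries of 1 group there is nothing to test, and every value below is a description with no p-value.

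Mature B cells leave the resting state when LPS is sensed through Toll-like receptor 4 with its partners MD-2 and RP105, and they then grow and divide. IL-4 acts through its receptor, JAK kinases and STAT6, and raises CD23, MHC class II and the germline transcripts of the IgG1 and IgE constant regions. Breaks then form in the switch regions in front of those constant genes, and their repair joins the variable region to a new class. Growth before division draws on the Myc and Max transcription factors, which act as a pair, and on ribosome building, glycolysis and nucleotide synthesis.

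Levels are given in RPM, reads scaled to the common library size that the authors' values imply, for control replicate 1 first and control replicate 2 second. The libraries held 17.54 and 17.2 M estimated reads over 15681 genes, so 1 read was worth 0.0622 and 0.0606 RPM, and a gene with no read may have stood at up to 3 reads, or 0.218 and 0.212 RPM; these limits cover counting error alone. Of these genes 11763 (75.0%) reached 1 RPM in both libraries, 8686 (55.4%) reached 10 RPM, 2035 (13.0%) reached 100 RPM and 130 (0.829%) reached 1000 RPM. Where levels of different genes are set against each other, the RPM were divided by the length of the gene's exons (RPM per kb). An order of named genes is stated only where it held in both libraries and with each of 3 ways to set that length, unless the length used is named.

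The libraries stood apart in their sex-linked genes, for which the labels give no sex. Xist, the RNA that silences an X chromosome in females, had 0.778 and 985 RPM, or 12 reads against 16241. The Y-linked genes Eif2s3y, Kdm5d and Uty had 99.9 and 0.091, 41.1 and 0.349, and 18.1 and 0.214 RPM, respectively, and Ddx3y had 73.9 RPM in control replicate 1 and no read in control replicate 2. Replicate 1 was therefore high in the Y-linked genes and low in Xist, and replicate 2 the reverse. The spread between the libraries is given below with and without genes of these chromosomes.

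The markers of the B cell label described here were present in both libraries. Cd79a (chromosome 7, 24897381 to 24902197 of GRCm38), a signalling chain of the B cell receptor, stood at 973 and 963 RPM. Pax5 (chromosome 4, 44524757 to 44710487), the transcription factor that holds B cell identity, stood at 382 and 375 RPM. Fcer2a (chromosome 8, 3681737 to 3694175), which encodes the low-affinity IgE receptor CD23, stood at 1042 and 1414 RPM, and so had the largest gap of these 3 between the libraries. Ms4a1 (CD20) and Cd79b were at 448 and 399, and 1076 and 1062 RPM, respectively. Of 10 T cell markers 4 reached 1 RPM in both libraries, and the summed level of the 10 was 8.80 and 9.72 RPM. Per kb, Cd8b1 led them with all exons as length and Lat with the median transcript. Cd3g had 0.156 and 0.152 RPM, under the level of 3 reads, and Cd3e had no read in replicate 1 and 0.273 RPM in replicate 2. NK cell markers summed to 8.84 and 6.61 RPM over 6 genes. Nearly all of that sum was Gzma, Gzmb and Prf1, each with a mean of at least 1 RPM, with Gzmb at 2.21 and 1.24 RPM. Ncr1, Klrd1 and Klrk1 had no read in either library. Macrophage and monocyte markers summed to 14.6 and 14.3 RPM over 6 genes, most of it Cd68 at 12 and 10.7 RPM, and Csf1r and Lyz2 did not pass 0.334 RPM. Dendritic cell markers summed to 165.6 and 193.6 RPM over 4 genes. Flt3 at 146 and 168 RPM and Zbtb46 at 19 and 24.8 RPM made up nearly all of that sum, whereas Itgax, which encodes CD11c, was at 0.156 and 0.091 RPM. The stroma and endothelium list summed to 34.3 and 41.0 RPM over 4 genes and rested on Pecam1 at 33.6 and 40 RPM, with no read of Kdr. The neutrophil and mast cell lists have no member in the table and were not analysed here. Whether the genes of other lineages came from B cells or from a few other cells was not tested; in bulk RNA, fewer cells of a type and less RNA per cell cannot be told apart.

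**Figure D1:**
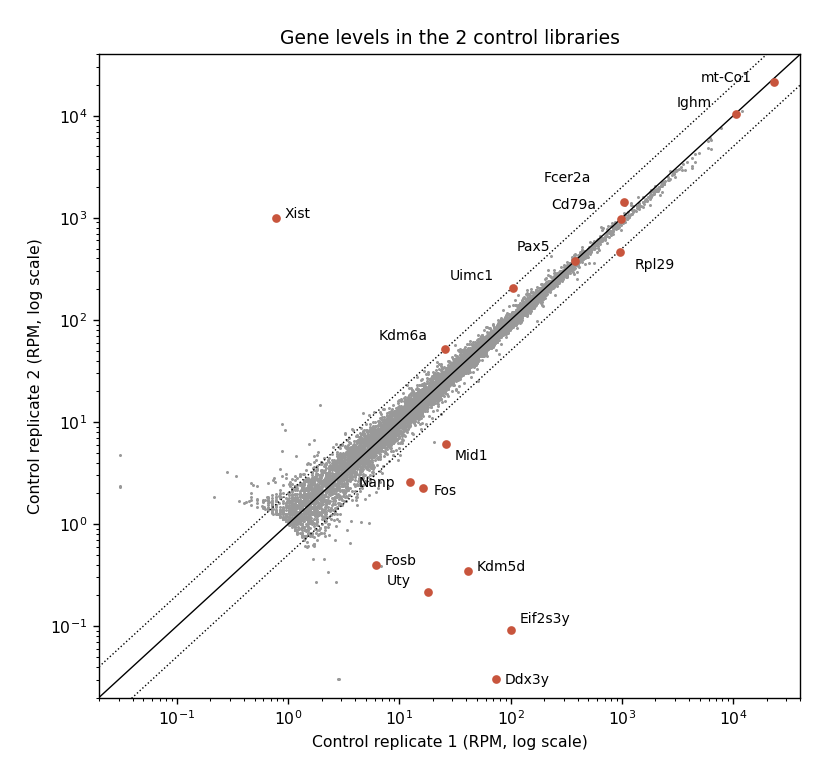
Level of each gene with a mean of at least 1 RPM in control replicate 1 (horizontal, RPM, log scale) against control replicate 2 (vertical, RPM, log scale); the solid line marks equal levels, the dotted lines 2-fold. Most genes lie near the solid line, Xist lies far above it with 985 RPM in replicate 2, and the Y-linked genes lie far below it; a gene with no read in a library is drawn at the lower edge, at the value of 0.5 read.

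Reads were concentrated in few genes. The 10 most abundant genes by RPM were the same in both libraries and held 8.17% and 7.83% of all reads, the top 100 held 27.3% and 26.0% (mean 26.7% ± 0.91, SD, n = 2) with 95 genes in common, and the top 1000 held 59.4% and 58.2% with 957 in common. The most abundant transcript was mt-Co1, the mitochondrially encoded subunit I of cytochrome c oxidase, with 23254 and 21178 RPM, which is 2.13% and 2.03% of the reads. Per kb of all exons, the first 10 places were held by mt-Co1 (mean 14379 RPM per kb), Igkc (11453), mt-Co2 (8022), mt-Co3 (6902), mt-Atp6 (5932), Ighm (5522), Eef1a1 (4639), Cd74 (4579), Rplp1 (4325) and mt-Nd1 (3898 RPM per kb). They are thus 5 genes of the mitochondrial genome, the kappa and mu constant regions, an elongation factor, the MHC class II invariant chain and a ribosomal stalk protein. The other 15 of the first 25 were mitochondrial (mt-Cytb, mt-Atp8 and mt-Nd4), ribosomal protein genes (Rps3a1, Rps15, Rpl19, Rpl32, Rpl13a, Rps2 and Rpl4) or close copies of such genes (Gm9843, Rpl27-ps3, Rps12-ps3, Gm8730 and Gm11808). How reads were split between a ribosomal protein gene and its copies rests on the authors' estimate, and those levels are uncertain.

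The 46 gene lists were used to describe these cells by programme. Of all genes 75.0% reached 1 RPM in both libraries, and 84.8% of protein-coding genes had a mean of at least 1 RPM. The counts of list members at 1 RPM given below are to be read beside these shares. Of the 44 lists with a member in the table, 36 had a median level per kb above that of all genes, 3.63 RPM per kb on the mean of the libraries. In each library alone 35 did, against a median of all genes of 3.58 and 3.67 RPM per kb. The sex-linked list, at 2.28 and 0.022 RPM per kb, then lay below it. The median and the percentiles of all genes include non-coding genes, which were less often expressed. Of antisense genes 29.8% and of lincRNA genes 38.5% had a mean of at least 1 RPM. The lists were not compared with protein-coding genes alone. The highest list medians were those of the mitochondrially encoded genes at 2661 and 2138 RPM per kb and of the cytosolic ribosomal proteins at 1058 and 953 RPM per kb. With all exons as length, MHC class II came next at 309.5 and 310.6 RPM per kb and the immunoglobulin constant genes at 211 and 247 RPM per kb. The ribosomal list passed the mitochondrial one when the length of the median transcript was used.

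**Figure D2:**
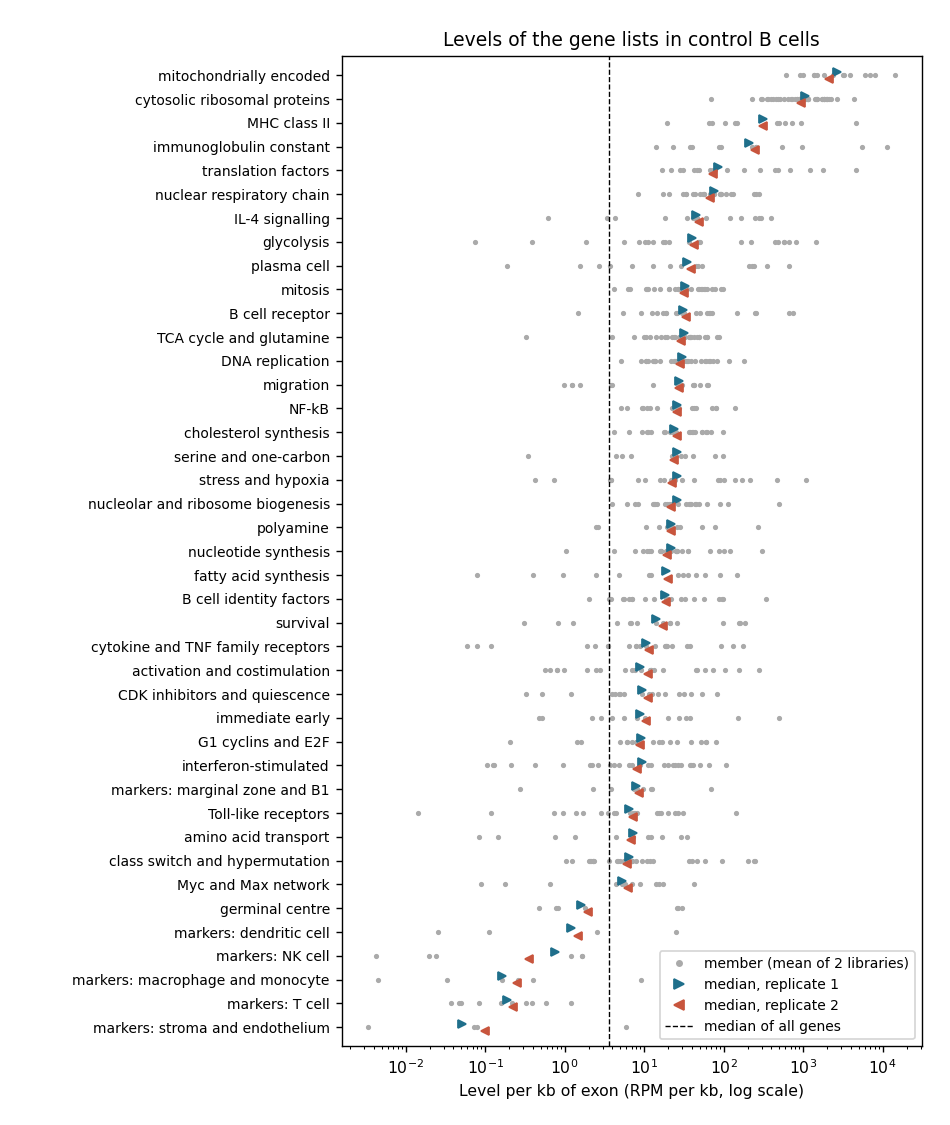
Level per kb of exon (horizontal, RPM per kb, log scale) of the members of each gene list with at least 4 members in the table, as the mean of the 2 control libraries (grey points), with the list's median in each library (triangles) and the median of all genes (dashed line). Mitochondrially encoded genes, ribosomal proteins, MHC class II and immunoglobulin constant genes have the highest medians, and the germinal centre list and the markers of dendritic cells, NK cells, macrophages, T cells and stroma lie to the left of the dashed line, the first of these with all exons as length but not with the median transcript.

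All 23 genes listed for the B cell receptor and its signalling reached 1 RPM in both libraries, with a median of 31.0 and 33.3 RPM per kb, at the 88.8th percentile of all genes. Cd79a and Cd79b stood at 668 and 661, and 752 and 742 RPM per kb, respectively. Cd22, an inhibitory coreceptor, was at 1244 and 1314 RPM, and Ptpn6, the phosphatase SHP-1 that it recruits, at 419.9 and 415 RPM. The kinases Syk, Btk and Lyn were at 273 and 285, 84.4 and 72.4, and 73.4 and 79.6 RPM, respectively, the adaptor Blnk at 290.2 and 252 RPM and its partner Plcg2 at 273 and 295 RPM. Bcl10 and Malt1, which link the receptor to NF-kB, were at 66.3 and 67, and 103 and 93.4 RPM, respectively. Pik3cd, the lymphocyte PI3-kinase subunit, was at 476 and 422 RPM. Cr2, which encodes the complement receptor CD21, was the lowest of the 23 per kb of all exons at 1.7 and 1.27 RPM per kb. Fcer2a exceeded Cr2 by 198.3-fold and 361-fold per kb. Fcgr2b, the inhibitory IgG receptor, was at 60.9 and 44.1 RPM.

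The factors of B cell identity were all at or above 1 RPM (22 of 22), with a median of 18.1 and 18.8 RPM per kb. The coactivator Pou2af1 (OCA-B) was at 895 and 835 RPM, Irf8 at 658 and 593 RPM, Mef2c at 441 and 482 RPM, Tcf3 (E2A) at 402 and 399.5 RPM, Ikzf1 (Ikaros) at 333 and 329.9 RPM, Spib at 263 and 288 RPM and Ebf1 at 55 and 54.4 RPM. Pou2af1 exceeded Pax5 and Pax5 exceeded Ebf1 per kb, by 7.94-fold and 7.63-fold on the mean of the libraries; with the median transcript as length the first ratio was 1.18-fold. Bach2 and Bcl6, repressors that hold back the plasma cell programme, were at 59.4 and 67.7, and 29.9 and 43.3 RPM, respectively; Bcl6 was the lower in replicate 1. Of the 6 genes listed under V(D)J recombination only Vpreb1 was in the table, at 0.155 and 0.212 RPM, at or under 3 reads in each library. That list leaves out the end-joining genes, which are given below with class switching.

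The immunoglobulin constant genes took 1.91% and 1.95% of all reads. Ighm, the mu constant region, had 10500.1 and 10330.4 RPM, and Ighg1, the gamma 1 region, had 2673 and 2333 RPM. Ighe had 371 and 436 RPM, Ighd 186 and 148 RPM, Ighg2b 107 and 109 RPM, Ighg3 90.2 and 98.8 RPM, Igha 40.6 and 35.1 RPM and Ighg2c 29.7 and 30.9 RPM. As shares of the summed heavy-chain level per kb, Ighm held 79.0% and 80.0%, Ighg1 14.6% and 13.1%, Ighe 3.32% and 4.02%, and Ighd 1.39% and 1.13%. The other 4 regions each held at most 0.595%. Ighg1 and Ighe, the classes that IL-4 directs in mouse B cells, thus came next after Ighm, and Ighg1 exceeded Ighg3 by 28.7-fold and 22.9-fold per kb. Ighg3 and Ighg2b are the classes known to follow LPS given alone in mouse cells. Reads over a constant region do not tell germline transcripts from mRNA of switched cells, nor membrane from secreted forms. Igkc held 92.4% and 91.2% of the light-chain level per kb and exceeded Iglc1 by 22.8-fold and 19.6-fold. The split of reads between Iglc2 and Iglc3, which are near copies, is uncertain.

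**Figure D3:**
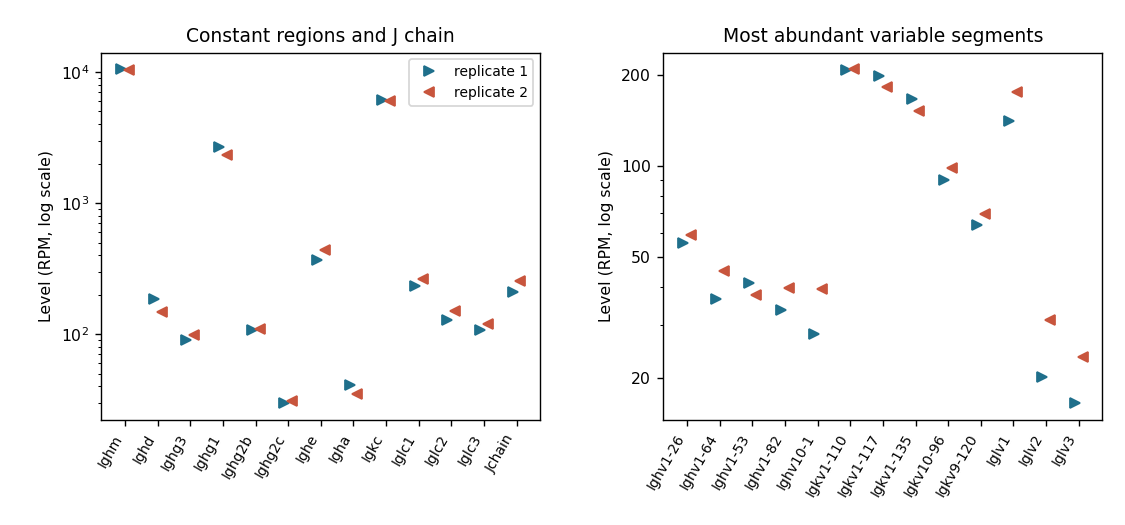
Levels (vertical, RPM, log scale) of the immunoglobulin constant genes with Jchain (left) and of the 5 most abundant variable segments of the heavy and kappa loci and the 3 of the lambda locus (right) in control replicate 1 and control replicate 2. Ighm and Igkc are highest on the left with Ighg1 next, and the gap between the libraries is widest for Ighv10-1, Iglv2 and Iglv3 on the right.

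The variable segments were many, and the most abundant held a small share of the heavy-chain and kappa loci. Estimated reads of segments were often not whole numbers, as for Ighv1-26 with 896.21 and 976.93. How reads were split between segments rests on the authors' estimate, so the ranks and shares below are uncertain. Of 101 heavy-chain segments, 78 reached 1 RPM in both libraries, and they summed to 1014 and 1065 RPM. The most abundant, Ighv1-26, held 5.52% and 5.58% of the locus, and the top 5 held 19.8% and 20.8%. Of 98 kappa segments 86 reached 1 RPM, with a sum of 2532 and 2555 RPM. Igkv1-110 led with 207 and 209 RPM, or 8.19% and 8.17% of the locus. Igkv1-117 and Igkv1-135 followed with 198 and 183, and 167 and 152 RPM, respectively. The lambda locus had 3 segments, of which Iglv1 with 140.3 and 175 RPM held 79.3% and 76.2%. The median fold between the libraries was 1.14 for heavy-chain, 1.10 for kappa and 1.43 for lambda segments, the last over 3 segments that were all higher in replicate 2. Iglc1, Iglc2 and Iglc3 were likewise higher in replicate 2, at 231 and 262, 129 and 151, and 108 and 119.9 RPM, respectively.

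Class switching and hypermutation genes were all expressed (34 of 34 at 1 RPM or more, against 75.0% of all genes). Their median was 6.53 and 6.15 RPM per kb, at the 59.8th percentile of all genes. Ung, the glycosylase that removes uracil from DNA, had 39.4 and 36.8 RPM. Batf, a factor needed for class switching, was at 395 and 297 RPM. The mismatch repair gene Msh6 was at 172 and 177 RPM, and Apex1 at 144 and 130.2 RPM against Apex2 at 17.3 and 18.5 RPM. Trp53bp1, Rif1, Mad2l2, Shld1 and Shld2, which shield DNA ends for joining, were at 62.4 and 65.6, 68.5 and 54.2, 28.7 and 28.2, 4.64 and 4.21, and 7.31 and 6.94 RPM, respectively. The end-joining genes Xrcc5 (Ku80), Xrcc6 (Ku70), Lig4, Xrcc4 and Nhej1 were at 12.7 and 12.9, 54.6 and 50.7, 5.38 and 5.61, 8.31 and 10.8, and 5.26 and 5.31 RPM, respectively. The damage mark gene H2afx was at 365 and 298 RPM and the break sensor Parp1 at 304 and 306 RPM. Per kb, Batf led this list with all exons as length and Parp1 with the median transcript.

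All 16 genes of IL-4 signalling reached 1 RPM, with a median of 44.8 and 48.9 RPM per kb, at the 92.1st percentile. The receptor chains Il4ra and Il2rg (the common gamma chain) were at 1545 and 1429.9, and 279 and 289 RPM, respectively, whereas Il13ra1, the partner chain of the type II receptor, was at 2.27 and 2.33 RPM; Il4ra exceeded Il13ra1 by 420.6-fold and 378.8-fold per kb. Jak1, Jak3 and Stat6 were at 248 and 249, 238 and 264, and 198 and 196 RPM, respectively. Of known IL-4 targets, Fcer2a and Il4i1, an amino acid oxidase, were at 1042 and 1414, and 1055 and 1333 RPM, respectively, Nfil3 at 552 and 567 RPM and the chemokine Ccl22 at 353 and 414 RPM. The feedback inhibitors Cish, Socs1 and Socs3 were at 244 and 286, 112 and 141, and 171 and 174 RPM, respectively. Of the 16 genes 12 were higher in replicate 2, with a median log2 ratio (replicate 1 to replicate 2) of -0.04, and 13 with each library scaled to its own total. Over all 12042 genes with a mean of at least 1 RPM, 47.2% were higher in replicate 2 and 61.9% with own totals, a scaling that moves every gene the same way.

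Fcer2a is a marker of these cells and a known STAT6 target. Its promoter is shown as that of the IL-4 gene highest in RPM with a match to the motif marked below. The match was thus a condition of the choice. The stretch shown is 1 of 3 start windows that RefSeq (GRCm38.p6) holds for the gene, chr8:3690862-3691111 on the minus strand, 5′ to 3′ up to the base before the start. Capitals mark a match to TTCNNNNGAA, the spacing that STAT6 prefers, which begins 168 bases before the start.
Fcer2a: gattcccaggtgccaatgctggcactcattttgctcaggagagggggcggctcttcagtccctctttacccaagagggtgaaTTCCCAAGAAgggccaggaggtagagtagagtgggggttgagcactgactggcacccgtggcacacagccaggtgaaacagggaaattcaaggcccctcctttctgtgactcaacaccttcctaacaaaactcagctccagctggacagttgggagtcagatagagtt
Both strands were searched. At least 1 promoter window (250 bases before to 50 after a start) held TTCNNNNGAA in 2 of the 16 IL-4 genes (12.5%) and in 6.50% of the 10202 protein-coding genes with a window. A match here is a description of the letters and not evidence of binding.

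Tlr4, the receptor of LPS, was low at 0.745 and 0.715 RPM per kb, below the median of all genes, while its partner Ly96 (MD-2) was at 4.48 and 3.95 RPM per kb with all exons as length. Of 27 genes of Toll-like receptor signalling 23 were in the table and 21 reached 1 RPM. Tlr4 had 4.14 and 3.97 RPM and Ly96 4.58 and 4.03 RPM. Cd180 (RP105) and its partner Ly86 (MD-1) had 33.8 and 35.5, and 88.8 and 87.7 RPM, respectively. Among the nucleic acid sensors Tlr7 had 62 and 73 RPM and Tlr9 22.6 and 27.7 RPM, and Unc93b1, which carries them to endosomes, had 424 and 433 RPM. Tlr7, Tlr9 and Tlr1 each exceeded Tlr4 per kb, by 22.6-fold, 9.91-fold and 21.1-fold on the mean of the libraries. The adaptors Myd88 and Ticam1 (TRIF) were at 73.7 and 65.5, and 57.5 and 62.9 RPM, respectively, and the kinase Irak1 at 151 and 144 RPM. Tlr4 and Ly96 were close in level between the libraries.

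NF-kB genes were all above 1 RPM (17 of 17), with a median of 26.1 and 25.8 RPM per kb. The subunits Nfkb1, Nfkb2, Rel, Rela and Relb were at 1035 and 924, 356 and 387, 169.8 and 169, 144 and 130.0, and 101 and 100.3 RPM, respectively. Their inhibitors Nfkbia and Nfkbie were at 209 and 233, and 127 and 129 RPM, respectively, and the deubiquitinase Tnfaip3 (A20) was at 287 and 291 RPM. No order of Nfkb1 and Nfkb2 per kb can be given, since it changed with the library and the length used.

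NF-kB is known to act on genes of its own family. The Nfkb2 promoter is shown as that of the NF-kB gene highest in RPM with a kappaB match before the start. That match was thus a condition of the choice. The stretch shown is 1 of 3 RefSeq (GRCm38.p6) start windows of the gene, chr19:46304487-46304736 on the plus strand. Capitals mark 3 matches to kappaB, which begin 39, 38 and 11 bases before the start; the first and second overlap.
Nfkb2: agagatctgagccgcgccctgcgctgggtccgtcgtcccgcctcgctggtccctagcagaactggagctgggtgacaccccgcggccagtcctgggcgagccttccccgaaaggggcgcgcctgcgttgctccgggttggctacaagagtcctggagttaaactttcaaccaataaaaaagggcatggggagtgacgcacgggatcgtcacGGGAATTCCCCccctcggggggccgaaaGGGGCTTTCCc
The motif was present in 8 of 13 NF-kB genes with a window (61.5%) and in 6.35% of all 10202 genes, with both strands searched.

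Among receptors for cytokines and TNF family ligands 20 of 23 reached 1 RPM, against 75.0% of all genes. Tnfrsf13c, the receptor for the survival factor BAFF, had 355 and 363 RPM, Tnfrsf13b (TACI) 259 and 262 RPM and Cd40 132 and 126 RPM. Il21r had 423 and 458 RPM and Il2ra 116 and 99.3 RPM. Tnfrsf13c, Tnfrsf13b and Il21r exceeded Cd40 per kb in both libraries. Il9r, at 31.7 and 57 RPM, was the member at or above 1 RPM with the widest gap between the libraries, and was higher in replicate 2. Il7r, the receptor for IL-7 that early B cell precursors need, had 0.778 and 0.334 RPM.

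Antigen presentation genes were abundant and close in level between the libraries. The MHC class II list took 1.49% and 1.54% of all reads, and its median fold between the libraries was 1.02. Cd74, the invariant chain, had 7775 and 7599.8 RPM, and the chains H2-Aa, H2-Ab1 and H2-Eb1 had 1768 and 1807, 1866 and 1863, and 1829 and 1872 RPM, respectively. H2-DMa and H2-DMb2, subunits of the peptide editor, were at 529 and 501, and 911 and 839.7 RPM, respectively, and H2-Ob, a subunit of its inhibitor, at 380.4 and 381 RPM. Ciita, the transactivator of the class, was at 168 and 198 RPM, and Cd74 exceeded it by 263.4-fold and 218-fold per kb.

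Of 24 activation and costimulation genes 21 reached 1 RPM, against 75.0% of all genes. Cd83, which stabilises MHC class II and CD86 at the surface, had 663 and 758 RPM, Cd44 495 and 492 RPM, Cd86 168 and 169.7 RPM and Cd80 7.13 and 13.4 RPM. Both Cd83 and Cd86 exceeded Cd80 per kb, by 133.9-fold and 81.6-fold for Cd83 and by 23.8-fold and 12.8-fold for Cd86. Cd69, an early activation antigen, was at 51.6 and 48.2 RPM. The cytokine genes Ltb, Lta, Tnf, Il10 and Il6 were at 162 and 157, 78.8 and 45.9, 28.2 and 29.1, 15.5 and 18.9, and 3.83 and 5.49 RPM, respectively, and Ebi3, a chain of IL-27 and IL-35, at 175 and 189.9 RPM. Lta was higher in replicate 1 and Cd80 in replicate 2.

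Receptors of homing and of egress from lymphoid tissue differed in level. Cxcr5, which directs cells to follicles, had 202 and 227 RPM, Ccr7 81.8 and 81.5 RPM and Cxcr4 17.9 and 29.4 RPM, and Cxcr5 exceeded both per kb. S1pr1, the egress receptor, had 3.89 and 3.73 RPM against 74.4 and 69.3 RPM for S1pr4, a 24.4-fold and 23.7-fold difference per kb. Gpr183 (EBI2) had 104 and 141 RPM and Klf2, the factor that is known to drive S1pr1 in T cells, 118 and 112 RPM. Of the marginal zone and B1 cell markers all 9 reached 1 RPM, among them Zbtb32 at 168 and 159.9 RPM, Cd9 at 23.9 and 26.9 RPM, Cd5 at 1.21 and 1.49 RPM and Cd1d1 at 5.85 and 5.94 RPM. Zbtb32 is also known as a gene that activated B cells induce.

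Plasma cell genes spanned a wide range of levels. Prdm1 (Blimp-1) had 39.1 and 39.1 RPM, Irf4 211 and 226 RPM and Xbp1 793 and 680.5 RPM. Pax5 exceeded Prdm1 by 6.16-fold and 6.04-fold per kb, and Irf8 exceeded Irf4 by 2.17-fold and 1.83-fold. The endoplasmic reticulum chaperones Hsp90b1, Hspa5 and Mzb1 were at 1490.4 and 1318, 1099 and 965, and 791 and 838 RPM, respectively, Derl3 and Fkbp11, of the same compartment, at 43 and 41.8, and 9.37 and 10.6 RPM, respectively, and Jchain, which joins IgM pentamers, at 209.9 and 255 RPM. Sdc1, which encodes the plasma cell antigen CD138, had 6.01 and 5.97 RPM, and Tnfrsf17 (BCMA) had 0.28 RPM in replicate 1, close to 3 reads, and no read in replicate 2. The RNA of CD138 and BCMA was thus scarce in both libraries.

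Germinal centre genes had a median of 1.60 and 1.98 RPM per kb over the 7 in the table, below that of all genes. With the median transcript as length the list lay above it, at 12.1 RPM per kb against 9.78 over all genes. Fas and Gna13 were at 54.3 and 69, and 182 and 162 RPM, respectively, and Mef2b at 38.2 and 34.7 RPM. Mybl1, S1pr2, Nuggc and Gcsam were at 8.62 and 10.7, 5.57 and 7.43, 1.65 and 2.76, and 1.34 and 1.91 RPM, respectively. Of the 7 genes 5 were higher in replicate 2.

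Protein synthesis took the largest share of reads among the listed programmes. The 48 cytosolic ribosomal protein genes held 9.22% and 8.80% of all reads, and all of them reached 1 RPM. Rpsa, Rpl4 and Rps2 had 4914 and 4355, 4238 and 3862, and 3869 and 3518 RPM, respectively. The 19 translation factors in the table held 2.91% and 2.83%. The elongation factors Eef1a1 and Eef2 had 11979 and 11153, and 5981 and 5679 RPM, respectively, and the initiation helicase Eif4a1 had 832 and 735 RPM. The nucleolar proteins Npm1 and Ncl had 1417 and 1221, and 1219.9 and 1086 RPM, respectively, Fbl 176 and 150.3 RPM, and the RNA polymerase I factors Ubtf and Rrn3 242 and 252, and 62.9 and 57 RPM, respectively. All 24 nucleolar and ribosome biogenesis genes reached 1 RPM, with a median of 26.2 and 22.0 RPM per kb.

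Ribosomal protein genes are known to start within a run of pyrimidines that sets how their mRNA is translated. The Rpl4 promoter is shown as that of the listed gene highest in RPM with a run of at least 8 pyrimidines that ends before the start. The run was thus a condition of the choice. RefSeq (GRCm38.p6) gives 1 start window, and the stretch is chr9:64173137-64173386 on the plus strand. Capitals mark a run of C and T that begins 18 bases before the start and ends before it. Whether a start itself lies within a run was not tested.
Rpl4: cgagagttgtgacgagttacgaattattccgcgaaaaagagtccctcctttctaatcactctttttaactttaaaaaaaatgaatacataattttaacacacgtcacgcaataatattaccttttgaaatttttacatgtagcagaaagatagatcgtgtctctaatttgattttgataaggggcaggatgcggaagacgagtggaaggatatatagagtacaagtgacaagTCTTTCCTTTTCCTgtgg
A run of at least 8 pyrimidines within 50 bases of a start, searched on the strand of the gene, was present in 29 of 35 ribosomal protein genes with a window (82.9%), in 37.1% of all 10202 genes and in 57.1% of the 84 with 1000 RPM or more.

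Energy metabolism was read from both genomes. The 15 genes of the mitochondrial genome held 5.69% and 4.93% of all reads, led by mt-Co1, mt-Co2 (6256 and 4719 RPM) and mt-Co3 (5954 and 4868 RPM). The 26 nuclear genes of the respiratory chain had a median of 75.2 and 66.8 RPM per kb, with Atp5b at 1128 and 1012 RPM, Atp5a1 at 793 and 725 RPM and Cox4i1 at 446 and 424 RPM. TCA cycle and glutamine genes had 32.0 and 28.9 RPM per kb over 29 genes, of which 28 reached 1 RPM. Cs, citrate synthase, was at 256 and 236 RPM, the glutamine carrier Slc1a5 at 377 and 348 RPM and the liver-type glutaminase gene Gls2 at 0.591 and 1.67 RPM.

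Glycolysis genes held 1.95% and 1.93% of reads, with 22 of 24 at 1 RPM or more and a median of 40.1 and 42.1 RPM per kb. Gapdh had 6374 and 5729 RPM, Pkm 2928 and 2792 RPM and Ldha, which makes lactate, 1988 and 1843 RPM. Aldoa, Pgk1, Gpi1 and Tpi1 were at 1947 and 1916, 1858 and 1841, 1430.0 and 1386, and 1371 and 1317 RPM, respectively. Hk1 and Hk2, the hexokinases of the first step, had 170.1 and 178, and 106 and 102 RPM, respectively, and Gapdh exceeded Hk2 by 87.0-fold and 81.2-fold per kb. The glucose carrier Slc2a1 had 183 and 165 RPM and Slc2a3 82.2 and 105 RPM, and Slc2a1 exceeded Slc2a3 by 4.60-fold and 3.24-fold per kb. The lactate carriers Slc16a3 and Slc16a1 had 188 and 197, and 44.2 and 45.9 RPM, respectively. Ldhb, the other lactate dehydrogenase subunit, had 0.467 and 0.758 RPM, and Ldha exceeded it by 2020-fold and 1153-fold per kb.

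Most genes for the building of lipids and nucleotides and for amino acid uptake were expressed. All 23 cholesterol genes reached 1 RPM, with Srebf2, the factor that drives them, at 432 and 462 RPM and Idi1, an isomerase of the pathway, at 339 and 357 RPM. CCAAT was present in the promoter windows of 16 of 17 cholesterol genes (94.1%) against 43.1% of all genes with a window. Of 14 measured fatty acid genes 13 reached 1 RPM, and Scd2, Fasn and Acly were at 755 and 839.7, 493 and 493, and 317 and 297 RPM, respectively, and Acaca exceeded its isoform Acacb by 11.5-fold and 13.0-fold per kb. All 27 nucleotide synthesis genes reached 1 RPM. Impdh2, which commits purines to GTP, had 390.2 and 359 RPM, and Cad, the first enzyme of pyrimidine synthesis, 218 and 203 RPM. The ribonucleotide reductase subunit Rrm2 had 289 and 276 RPM against 8.48 and 10.3 RPM for Rrm2b, which is known to serve cells at rest or under damage. Phgdh and Shmt2, of serine and one-carbon metabolism, were at 257 and 235, and 261 and 231 RPM, respectively. Shmt2 in the mitochondrion exceeded the cytosolic Shmt1 by 3.61-fold and 3.44-fold per kb. Odc1, which starts polyamine synthesis, was at 187 and 175 RPM, and its antizyme Oaz1 at 724 and 675 RPM. Of 12 amino acid transport genes 11 reached 1 RPM, and the carrier Slc7a5 and its partner Slc3a2 were at 133 and 121, and 109.7 and 97.4 RPM, respectively.

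Cell cycle genes were expressed from G1 to mitosis. The D cyclins Ccnd2 and Ccnd3 had 579 and 539.5, and 339.9 and 342 RPM, respectively, and Ccnd1 had 1.41 and 0.528 RPM. Each of Ccnd2 and Ccnd3 exceeded Ccnd1 per kb, Ccnd3 by 129.2-fold and 347.1-fold; Ccnd2 and Ccnd3 were equal (a ratio of 1.0) with the longest transcript as length and are not ordered here. Cdk4 had 271 and 254 RPM and Cdk6 21.6 and 18 RPM, a difference of 54.0-fold and 60.9-fold per kb. E2f1 and E2f2, the activators of S phase genes, were at 53.6 and 51.1, and 123 and 128 RPM, respectively, and Ccne1 at 61.5 and 50.6 RPM. All 32 DNA replication genes reached 1 RPM, with a median of 30.1 and 28.1 RPM per kb. The sliding clamp Pcna had 459.9 and 401 RPM, and the helicase subunits Mcm2, Mcm3 and Mcm5 had 172 and 170.4, 443 and 428, and 343 and 315 RPM, respectively. All 30 mitosis genes reached 1 RPM, with a median of 33.0 and 32.2 RPM per kb. The proliferation marker Mki67 had 1029 and 943 RPM and Top2a 866 and 829 RPM, while Ccnb1 and Cdk1, the engine of mitotic entry, had 141 and 133, and 138 and 129 RPM, respectively.

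Promoters of Cdk4, a known target of Myc, and Mki67 are shown to set a G1 gene beside a mitotic one. Each is the gene of its list highest in RPM with the marked motifs before the start. The matches were thus a condition of the choice. The Cdk4 stretch is chr10:127063285-127063534 on the plus strand and the Mki67 stretch chr7:135716380-135716629 on the minus strand, each from the only RefSeq (GRCm38.p6) start window of its gene. Capitals mark CACGTG, the E-box that Myc and Max prefer, in Cdk4, and CCAAT and TTTGAA (the latter the core of the cell cycle homology element) in Mki67, on either strand.
Cdk4: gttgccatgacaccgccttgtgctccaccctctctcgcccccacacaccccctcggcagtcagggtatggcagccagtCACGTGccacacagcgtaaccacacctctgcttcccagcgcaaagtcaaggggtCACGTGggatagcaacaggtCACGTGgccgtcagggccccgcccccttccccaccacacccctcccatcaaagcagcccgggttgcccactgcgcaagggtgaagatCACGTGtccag
Mki67: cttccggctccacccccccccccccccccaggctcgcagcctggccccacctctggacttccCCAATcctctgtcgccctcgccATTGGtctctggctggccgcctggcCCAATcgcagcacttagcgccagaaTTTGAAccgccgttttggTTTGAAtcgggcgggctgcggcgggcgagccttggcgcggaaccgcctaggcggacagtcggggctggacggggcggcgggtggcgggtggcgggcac
Cdk4 held 4 matches and Mki67 held 5. CACGTG was present in 4 of 15 genes of the G1 list with a window (26.7%) and in 11.6% of all 10202 genes. CCAAT and TTTGAA stood together in 15 of 24 mitosis genes (62.5%), in 3 of 25 DNA replication genes (12%) and in 5.99% of all genes.

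Brakes on the cycle and death genes were present beside it. Of 18 CDK inhibitor and quiescence genes 16 reached 1 RPM, against 75.0% of all genes. Cdkn1b (p27) had 79.6 and 88.5 RPM, Cdkn2d 47.3 and 51.3 RPM, Cdkn2c 35 and 32 RPM and Cdkn1a (p21) 43.4 and 62 RPM. Btg1 and Btg2, which hold back lymphocyte division, were at 205 and 209, and 116 and 174 RPM, respectively, and the p53 targets Ccng1 and Mdm2 at 278 and 299, and 133 and 148 RPM, respectively. Of survival genes Mcl1 had 536 and 531 RPM, Bcl2l1 (Bcl-xL) 102 and 90.3 RPM and Bcl2 62.9 and 60.7 RPM. Mcl1 exceeded Bcl2 by 22.8-fold and 23.4-fold per kb, and Bcl2l1 exceeded it by 3.23-fold and 2.97-fold. Bcl2a1b and Bcl2a1d (A1) were at 151 and 156, and 135 and 146 RPM, respectively, but these near copies share reads and their split is uncertain. The killers Bax and Bcl2l11 (Bim) were at 151 and 159, and 138 and 139 RPM, respectively, and Bbc3 (Puma) at 22.6 and 37 RPM.

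Myc and Max, of which the other groups of the study lack 1 or both, were measured here in cells labelled heterozygous, with the genes of their network. Myc (chromosome 15, 61985391 to 61990374) had 111 and 116 RPM and Max (chromosome 12, 76937269 to 76962201) 55 and 54.5 RPM. Their order per kb depended on the length used: Myc exceeded Max by 2.76-fold with all exons and was at 0.873 of it with the median transcript. Myc exceeded Mycn, at 0.654 and 0.515 RPM, by 206.8-fold and 274-fold per kb, and Mycl was at 1.84 and 3.49 RPM. Of the Max partners that oppose Myc, Mxd4, Mxd1, Mxi1, Mnt and Mxd3 were at 52.9 and 66.1, 37.7 and 37.9, 36.2 and 43.1, 22.4 and 28.5, and 19.6 and 22.8 RPM, respectively, and Mga was at 64.3 and 70.6 RPM. Of the 11 network genes with a mean of at least 1 RPM, 9 were higher in replicate 2, and all 11 with each library scaled to its own total, against the 47.2% and 61.9% of all genes. RNA of an intact and of an altered copy cannot be told apart at the level of genes.

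The typical gene differed little between the libraries. Over the 12042 genes with a mean of at least 1 RPM the median difference was 0.13 on the log2 scale (1.09-fold), and 77.6% lay within 1.2-fold. The correlation across these genes was 0.985 (Pearson, log2) and 0.993 (Spearman), as a description over genes that share a library. Past 2-fold lay 223 genes (1.85%), of which 90 were higher in replicate 1 (0.747%) and 133 in replicate 2 (1.1%). Outside chromosomes X and Y the count was 203 of 11672 genes. Of the 727 listed genes with a mean of at least 1 RPM, sex-linked genes left out, 10 lay past 2-fold (1.38%), against 1.85% of all genes. They were Fos, Fosb, Ier3, Trim12a, Iigp1, Klf4, Bik, Gls2, Gzma and Adgre1, and only Fos, Ier3 and Trim12a had a mean of at least 5 RPM. Most lists had no member past 2-fold, so the absence of one sets no programme apart. Of the 727 listed genes 685 had a mean of at least 5 RPM, against 9951 of all 12042 genes. At that level 3 of the 685 and 25 of the 9951 lay past 2-fold. The shares of 1.38% and 1.85% thus come from sets of unlike level.

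The spread followed the level. Between 1 and 3 RPM the median fold was 1.32 and 173 of 1409 genes (12.3%) lay past 2-fold, where counting error alone would give a median of 1.21. Between 30 and 100 RPM the median fold was 1.07 and 4 of 3855 genes lay past 2-fold. Of 1597 genes between 100 and 300 RPM none did, with a median of 1.06 against 1.02 from counting. Of the 133 genes at 1000 RPM or more none lay past 2-fold, and their median was 1.09 against 1.005 from counting. Their signed median log2 ratio (replicate 1 to replicate 2) was 0.12, close to the median absolute ratio of 0.13. These genes were thus mostly higher in replicate 1, and their 1.09 is largely a shift in 1 direction. On the log2 scale the median was 0.40 against 0.27 from counting at 1 to 3 RPM, and 0.13 against 0.0079 at 1000 RPM or more. Counting error thus made up a larger share of the spread of low genes than of abundant genes. The gap between the measured and the counting median was not smaller in low genes.

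**Figure D4:**
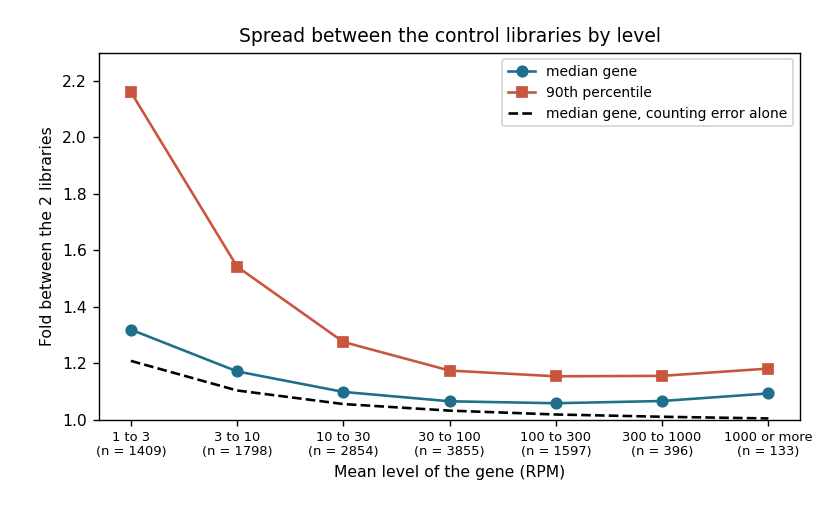
Fold between the 2 control libraries (vertical) for the median gene and the 90th percentile gene in bins of mean level (horizontal, RPM; n is the number of genes), with the median that counting error alone would give (dashed). The median drops from 1.32 at 1 to 3 RPM to 1.06 at 100 to 300 RPM and stands at 1.09 at 1000 RPM or more, where most genes were higher in replicate 1.

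The genes with the widest gaps at a mean of 5 RPM or more were few. Beside Xist, those highest in replicate 2 relative to replicate 1 were Xlr3b with 4.69 and 12.2 RPM, Myh7 with 3.25 and 7.58 RPM, Adgrg1 with 3.77 and 8.46 RPM, Ndrg2 with 5.32 and 11.7 RPM and Ier3 with 5.88 and 12.5 RPM. Kdm6a, an X-linked gene known to escape silencing, had 25.7 and 51.9 RPM, and Eps8l1, Uimc1 and Tmtc4 had 11.6 and 23.2, 104 and 204, and 3.39 and 6.65 RPM, respectively. Beside the Y-linked genes, those highest in replicate 1 were Fos with 16.3 and 2.27 RPM, Nanp with 12.6 and 2.57 RPM, Mid1 with 26.2 and 6.07 RPM, Acaa1b with 9.66 and 4.24 RPM, Trim30b with 7.0 and 3.18 RPM and Rpl29 with 969 and 466 RPM. Mid1 is known to cross the pseudoautosomal boundary in laboratory mice. Trim30b and Rpl29 have close copies, so that the split of their reads is uncertain. At this level 25 of 9951 genes lay past 2-fold.

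Members of several lists differed in the same direction between the libraries, by small amounts. Of all 12042 genes 5681 (47.2%) were higher in replicate 2, and 7450 (61.9%) with each library scaled to its own total. Over all genes the ratio of replicate 1 to replicate 2 also rose with level. With the deposited scaling its median log2 value was -0.12 at 1 to 3 RPM, 0.05 at 100 to 300 RPM and 0.12 at 1000 RPM or more. The lists below were not compared with genes of matched level. The mitochondrially encoded genes were higher in replicate 1 in 15 of 15 cases, by a median of 0.38 on the log2 scale, and by 0.31 in 15 of 15 with own totals. Ribosomal proteins were higher there in 48 of 48 cases by a median of 0.13, nuclear respiratory genes in 26 of 26 by 0.13, and nucleolar genes in 22 of 24 by 0.16. With own totals these were 46 of 48 by 0.07, 25 of 26 by 0.07 and 20 of 24 by 0.10. Cholesterol genes were higher in replicate 2 in 18 of 23 cases, with a median log2 ratio of -0.08, and in 22 of 23 with own totals, at -0.14. Activation genes were higher in replicate 2 in 14 of 21 cases, with a median of -0.12, and in 17 of 21 with own totals, at -0.18. Glycolysis changed side with the scaling, from 0.05 to -0.02. Scaling to own totals moved every log2 ratio by -0.07, which adds to each count in replicate 2, and over all genes the median ratio went from 0.01 to -0.05. With 1 library a side, these blocks and the difference in sex-linked genes cannot be told apart.

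**Figure D5:**
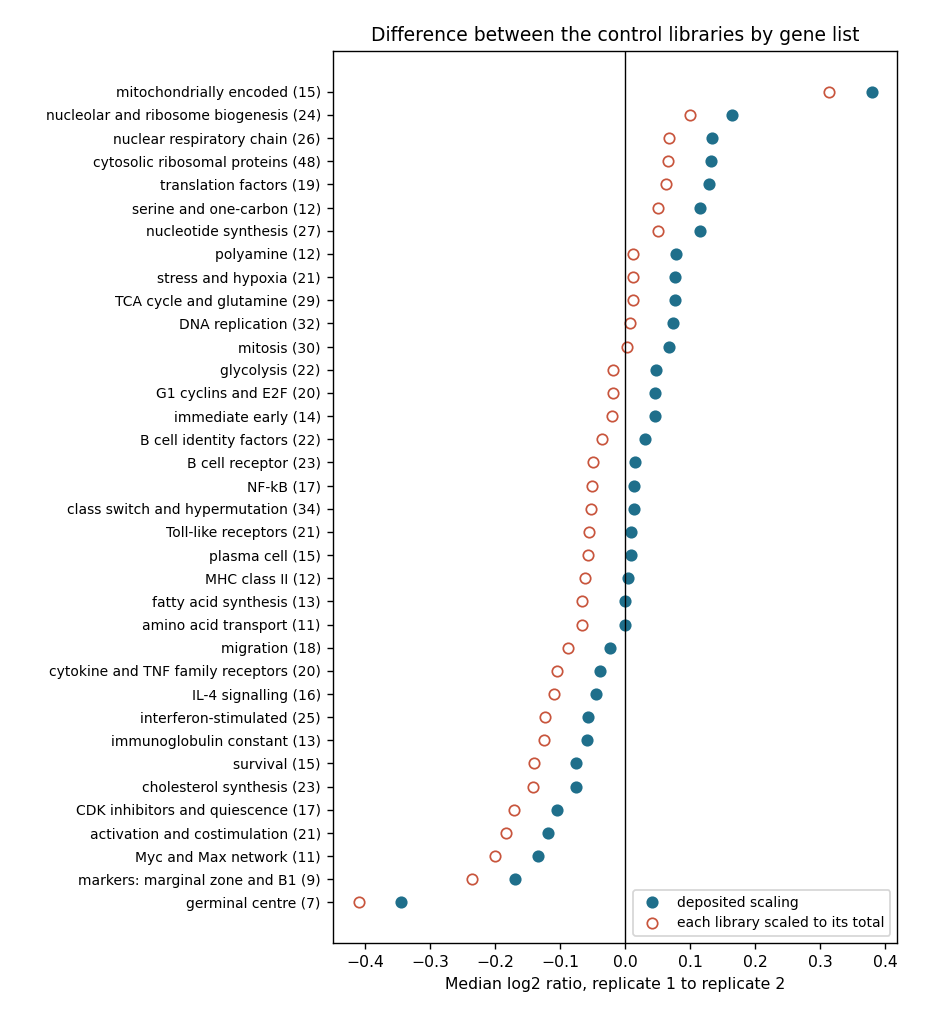
Median log2 ratio of control replicate 1 to control replicate 2 (horizontal) over the members of each list with a mean of at least 1 RPM (number in parentheses, lists of 7 or more), with the deposited scaling (filled) and with each library scaled to its own total (open). The mitochondrially encoded list lies farthest to the right at 0.38 and 0.31 and the germinal centre list farthest to the left at -0.34 and -0.41, while lists such as glycolysis cross 0 between the scalings.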

How the data were processed

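RNA-seq of the 2 heterozygous control libraries was read from the deposited table of log2 values, which covers 15681 genes and 8 libraries in 4 groups; the 6 columns of the other groups were not used here. The submitters' processing notes name CASAVA 1.8, cutadapt, RSEM 1.2.3 and the build GRCm38; how they were set, which annotation and strand were used and which genes were dropped is not stated. The deposited log2 values were found to hold estimated reads, with 0.5 added, per effective library size (16.07 and 16.49 M, against totals of 17.54 and 17.2 M), and multiples of 0.01 read came out within 0.0002 read. The design took list medians over all members in the table, and filters at 1 and 5 RPM were alternatives. Symbols (15622 of 15681), coordinates and exon lengths came from GENCODE vM21; levels per kb used the union of a gene's exons, with the longest and the median transcript as alternatives. No test was possible within 1 group of 2 libraries. Counting spread was computed from the reads as Poisson.

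Named genes were members of 46 lists, the 25 highest per kb, the 10 widest gaps in each direction at a mean of 5 RPM or more (predicted genes and immunoglobulin segments left out), and the 5 highest variable segments of each locus. The lists, the pairs of genes set against each other, the motifs and the promoters shown were chosen with earlier results of these data known. Each promoter shown was the first of its list, by falling RPM, to hold its motif before the start. Some list members are counted in their lists but not reported here one by one. Promoter windows were those of RefSeq. Computation used matplotlib 3.10.9, scipy 1.17.1, numpy 2.4.6 and pandas 2.3.3 under Python 3.11.15, and the steps were tested on simulated data.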

Additional observations from a re-analysis of the deposited data

How the results depend on the processing

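No paired analysis was possible because the libraries form a single group and no result comes from a test. Of the summary values, the share of reads held by the 100 most abundant genes went from 26.7% to 24.2% with mitochondrially encoded genes left out, and ranged from 26.0% to 27.3% over the single libraries. The 223 genes past 2-fold became 25 at a mean of 5 RPM or more, 1714 with no filter on low values, 795 past 1.5-fold and 35 past 4-fold. The median difference of 0.127 (log2) became 0.125 with own totals, 0.110 at a mean of 5 RPM or more, 0.162 with no filter and 0.120 over protein-coding genes alone, the last chosen after seeing the data. Genes at 1 RPM numbered 11973 in replicate 1 alone and 12093 in replicate 2 alone, against 11763 in both. Lists above the median of all genes numbered 36, 35 without either replicate and 34 at 5 RPM or more. For 730 neighbouring pairs of genes in the order of their lists, the range of each gene over the 2 libraries was taken. In 451 pairs (61.8%) the ranges of the 2 genes did not overlap, and in 443 and 441 with the other lengths. Neither this order nor the spread between libraries can be given without a replicate. With the median transcript as length 40 of 44 list medians moved, by 1.0-fold to 8.95-fold over the lists (median 2.86) against 2.69-fold for the median of all genes; class switching genes went from 6.19 to 40.7, IL-4 signalling from 45.9 to 279, glycolysis from 42.1 to 256 and germinal centre genes from 1.79 to 12.1 RPM per kb. The germinal centre list so passed the median of all genes, the sex-linked list fell below it, and 24 of 44 lists had another leading gene under some length. Depth limits genes under 3 RPM, where counting error makes up much of the spread. Levels are shares of a library and say nothing of RNA per cell.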

Other observations

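Interferon, stress and immediate early genes spanned a wide range of levels. Of 29 interferon-stimulated genes 24 reached 1 RPM, against 75.0% of all genes. The list's median was 9.30 and 8.25 RPM per kb against 3.58 and 3.67 over all genes. The GTPase genes Gbp2 and Gbp3 had 285 and 257, and 224 and 203 RPM, respectively, and Oasl1 had 96.5 and 102 RPM. The antiviral genes Ifit2, Rsad2 and Ifit3 were at 3.64 and 3.85, 0.405 and 0.697, and 1.06 and 0.437 RPM, respectively. GAAANNGAAA, the core of the interferon response element, was present on either strand in the promoter windows of 16 of 23 of these genes (69.6%) and of 3.87% of all genes with a window. Trim12a, at 50.6 and 24.9 RPM, was higher in replicate 1, but this family has close copies and the split of its reads is uncertain.

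Among stress genes the constitutive chaperones Hsp90ab1 and Hspa8 had 3465 and 2966, and 2303 and 1771 RPM, respectively, whereas the heat-inducible Hspa1a and Hspa1b had 1.34 and 1.2, and 2.54 and 1.57 RPM, respectively. The hypoxia and starvation genes Bnip3, Egln1, Ddit4 and Vegfa were at 191 and 189.8, 153 and 156, 136 and 179.9, and 119 and 137 RPM, respectively. Of immediate early genes Jund, Junb and Jun were at 827 and 817, 339.6 and 359, and 107 and 107 RPM, respectively, within 1.1-fold between the libraries. Fos and Fosb were at 16.3 and 2.27, and 6.13 and 0.394 RPM, respectively, Egr1 at 29.4 and 20.1 RPM, and Ier3 at 5.88 and 12.5 RPM. Fos, Fosb and Egr1 were high in replicate 1 and Ier3 in replicate 2, while Egr2 at 69.1 and 65.6 RPM was close in both. Of the 14 genes 3 lay past 2-fold (21.4%), against 1.85% of all genes, and 2 of them had a mean of at least 5 RPM, where 25 of 9951 genes lay past 2-fold.

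Of X-linked genes with a Y-linked partner, chosen after their values were seen, Kdm5c had 109 and 156 RPM, Eif2s3x 216 and 309 RPM and Ddx3x 290.0 and 295 RPM. Kdm5c and Eif2s3x were higher in replicate 2, which had the Xist RNA, and Ddx3x was close in both. Of 362 genes of chromosome X 15 lay past 2-fold (4.14%), and of 8 genes of chromosome Y 5 did, against 203 of 11672 genes of the other chromosomes (1.74%).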
